A study of Eriocheir sinensis with 6 samples.

Results

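The regions described here are the 288 strongest intergenic ATAC-seq regions in muscle of the Chinese mitten crab (Eriocheir sinensis). They were chosen by their own ATAC-seq signal. Peaks of the ATAC-seq libraries were merged where they overlapped, and a merged region was kept when it held a peak in all 3 libraries, touched no gene, lay outside 2 kb on either side of every transcription start site (TSS), and had a mean fold enrichment of at least 10. Fold enrichment is the number of reads, each extended to a fixed length, piled up at the summit of a peak, plus 1, over the local background, plus 1, so that a plain ratio of the pileups and backgrounds below is higher. A region took the highest value of its summits in each library. Only sequences with CM names were used, CM024137.1 below 18 Mb. Of 85139 merged regions, 27373 were shared by the 3 libraries, 7482 of these were intergenic on the sequences used, and 288 (3.85%, exact 95% interval 3.42% to 4.31%) passed the threshold. The other 7194 are called the weaker regions below, and the name says only that they did not reach the threshold.

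The samples were muscle of 3 healthy, wild-type crabs from a farm at the inter-molt stage, when the shell is hard and the next one is not yet being made, with no treatment and no other stage. Each crab gave 1 ATAC-seq library and 1 RNA-seq library, 6 libraries in all. The crabs differ as animals, so that values over 3 crabs carry the spread between animals. The gene table pairs no gene with a name, so that the tissue could not be checked against muscle markers and genes are given by identifier only.

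In ATAC-seq the Tn5 transposase cuts and tags DNA that is not covered by nucleosomes or other proteins, so that a peak marks a stretch the enzyme could reach. Open sites far from genes are known in animals as places where enhancers, silencers and insulators act, and some of them act over long distances on promoters other than the nearest. Accessibility alone does not tell these kinds of site apart, and a peak caller judges the height of a site against the reads around it as well as against the whole library. Repeats and duplicate reads were not examined here, so a high fold enrichment is not by itself proof of an open site.

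The ATAC-seq libraries held 57320, 49574 and 56919 peaks in crabs 1, 2 and 3. The median fold enrichment over all 7482 shared intergenic regions was 4.34, 4.14 and 4.98 in these crabs, so that crab 3 stood highest over the regions as a whole. The RNA-seq libraries held 6772294, 7391379 and 7920094 reads assigned to genes.

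Intergenic regions reached the threshold more often than regions at genes. On the same sequences, 115 of 5480 shared promoter regions (2.1%, exact 95% interval 1.74% to 2.51%) and 91 of 4515 shared gene-body regions (2.02%, interval 1.63% to 2.47%) had a mean of at least 10. These intervals cover counting error only. The share at or above 10 was thus higher away from genes than at them, and since the threshold entered both sides this is given as a description.

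Most of the strong regions lay close to the threshold. The mean fold enrichment of the 288 regions had a median of 12, with quartiles of 10.7 and 14.2 and a maximum of 46.6. There were 145 regions between 10 and 12, 88 between 12 and 15, 38 between 15 and 20, and 17 at 20 or more. Only 5 regions reached 30. The long tail at the top therefore belongs to few sites, while the list as a whole shades into the weaker regions. The 3 regions just inside the threshold were at 2627324 to 2627928 on CM024099.1 with 9.97, 8.95 and 11.3 in crabs 1, 2 and 3, at 15002953 to 15003906 on CM024148.1 with 14.9, 8.36 and 6.94, and at 13931725 to 13932005 on CM024137.1 with 8.31, 12.8 and 8.91. The 3 just outside were at 640738 to 641512 on CM024112.1 with 10.7, 7.43 and 11.8, at 3670987 to 3671393 on CM024110.1 with 14.0, 9.01 and 6.91, and at 4898799 to 4899518 on CM024161.1 with 10.2, 7.23 and 12.5. Sites on both sides of the line were above 10 in some crabs and below it in others.

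The strongest site was at 10645699 to 10646024 on CM024133.1. Its fold enrichment in crabs 1, 2 and 3 was 46.5, 47.7 and 45.6, from a pileup of 881, 1340 and 679 reads over backgrounds of 18, 27.1 and 13.9. The crabs were close in fold although crab 2 had the tallest pileup and crab 3 the lowest. The peaks were 318, 318 and 325 bases wide and their summits lay within 1 base of each other. A second strong site stood nearby at 10658301 to 10658862, with a fold enrichment of 41.8, 42.8 and 38.8 in crabs 1, 2 and 3. Its pileup was 487, 677 and 371 reads, and the peak was 562 bases wide in crab 1 and 306 bases in crabs 2 and 3. The pair spans 13164 bases, and the nearest TSS to both sites is that of evm.TU.CM024133.1.314, 60230.5 bases from the middle of the first. That gene had 7.36, 5.79 and 10.05 FPKM, fragments per kilobase of gene model at the library size the authors used, in crabs 1, 2 and 3. Scaled instead to the reads assigned to genes (plain read totals), it had 7.64, 7.38 and 4.93, where crab 3 turned from highest to lowest.

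A further pair of sites among the first 10 lay on CM024117.1, far apart from each other. The site at 538026 to 538356 had a fold enrichment of 39.6, 42.1 and 40.6 in crabs 1, 2 and 3, and its peak was 331 bases wide in every crab with the same edges. The site at 1659700 to 1659986 had 30.5, 28.4 and 31.2, and a width of 285 bases in each crab. The gene with the nearest TSS to the first, 28572 bases away, was a locus the authors added to the annotation, at 561049 to 566763, with 1.25, 1.87 and 0.872 FPKM, and evm.TU.CM024117.1.49, the nearest to the second, had no read in any crab. Neither site had a crab that stood apart.

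CM024134.1 also carried a pair of sites among the first 10. The site at 17109055 to 17109385 had a fold enrichment of 31.6, 31.4 and 31.9 in crabs 1, 2 and 3, the smallest ratio between crabs of all 288 regions at 1.02. Its nearest gene, evm.TU.CM024134.1.376, had 71.4, 52.6 and 77.5 FPKM, with a TSS 85544 bases away. On plain read totals that gene had 74.2, 67.0 and 38.0, again with crab 3 turned from highest to lowest. The site at 1184933 to 1185540 had 27.7, 27.1 and 28.1, and here crab 3 had the tallest pileup, with 640, 564 and 760 reads. Its nearest gene, an added locus at 1093463 to 1094303, had 0.169, 0.631 and 0 FPKM and was the nearest gene of 3 strong regions, more than any other gene. The other strong regions nearest to it were at 971420 to 971779, with a fold enrichment of 11.7, 14.1 and 12, and at 969740 to 970083, with 12.6, 8.30 and 13.7.

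The remaining sites of the first 10 stood on separate sequences. At 2725946 to 2726702 on CM024164.1 the fold enrichment was 31.5, 29.3 and 24.2 in crabs 1, 2 and 3, with evm.TU.CM024164.1.63 as the nearest gene, 6373 bases away. At 6107833 to 6108562 on CM024140.1 it was 28.1, 29.1 and 27.7, with the tallest pileup of any strong region at 2580, 3236 and 1928 reads over backgrounds of 90.9, 110 and 68.6. That peak was 730 bases wide with the same edges in every crab, in a gap of 1851584 bases between its flanking genes. At 1986404 to 1986721 on CM024147.1 the fold enrichment was 26.5, 32.5 and 21.2, and at 2894017 to 2894356 on CM024142.1 it was 24.4, 28.0 and 24.8. In all of the first 10 sites every crab reached 20, and in 9 of the 10 the nearest TSS was more than 10 kb away. Further down this uniformity ended, since 2 of the first 20 regions had a crab under 10.

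**Figure D1:**
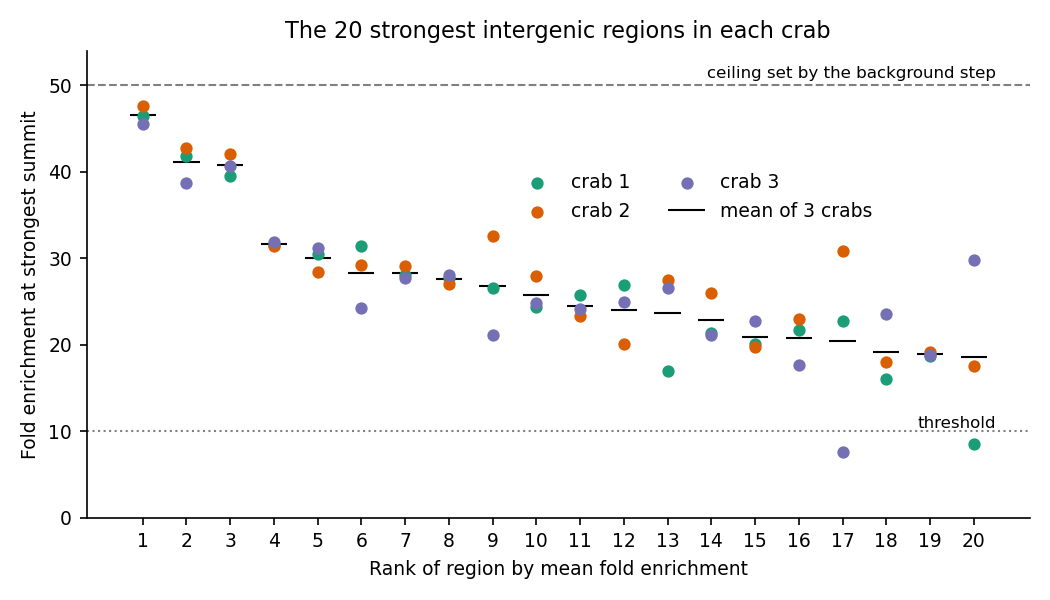
Fold enrichment in each crab for the 20 strong intergenic regions with the highest mean, by rank. Each point is 1 crab and the bar is the mean over 3 crabs, with the threshold of 10 dotted and the ceiling of 50 dashed. The crabs sit close together at the first 5 ranks, between 28.4 and 47.7, and spread apart at some later ranks.

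Crab 1, crab 2 and crab 3 did not agree equally well at all strong regions. The median fold enrichment of the 288 regions was 11.6, 11.5 and 13.8 in crabs 1, 2 and 3, against 4.25, 4.05 and 4.90 in the weaker regions. Of the 288, 122 reached 10 in every crab, 106 in 2 crabs and 60 in only 1. Crab 3 was the highest crab at 153 strong regions (53.1%) and at 4085 weaker ones (56.8%), so that its lead was of like extent in both sets.

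The highest crab was at least 1.5 times the lowest at 157 of the 288 strong regions (54.5%, exact 95% interval 48.6% to 60.4%), where the share over all 7482 shared intergenic regions was 44.9%. A ratio of at least 2 was found at 52 strong regions (18.1%), against 11.5% over all, and a ratio of at least 3 at 11 strong regions (3.82%), against 44 weaker ones (0.612%). After each crab was divided by its median, the ratio of 1.5 was reached at 130 strong regions (45.1%), against 38.5% over all. A mean can pass the threshold on 1 high crab, so that the ratio is not independent of the rule and these shares are a description. With 2 crabs in the ratio and the choice, the share was 41.1% without crab 1, 33.8% without crab 2 and 19.2% without crab 3. A ratio over 2 crabs cannot exceed the ratio over 3 at the same region, so the fall from 54.5% is partly built in. The share over all shared intergenic regions was not worked out for 2 crabs.

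**Figure D2:**
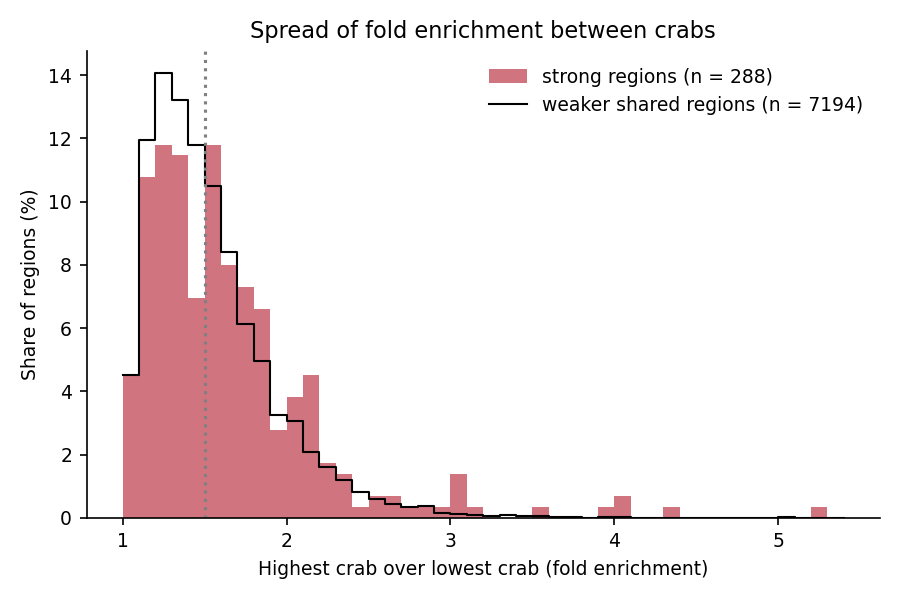
Ratio of the highest to the lowest crab in fold enrichment, as the percent of regions in each ratio class, for the 288 strong regions and the 7194 weaker regions, with a dotted line at 1.5. The strong regions have the larger share at ratios of 3 or more, 3.82% against 0.612%.

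The widest difference between crabs was at 3978477 to 3978815 on CM024130.1, where crabs 1, 2 and 3 had a fold enrichment of 3.24, 17 and 10.7. The pileups there were 15, 75 and 47 reads, so that crab 1 was low on few reads. At 8002906 to 8003183 on CM024144.1 the values were 9.93, 4.28 and 18.5, with crab 2 low. At 6029943 to 6030545 on CM024129.1 they were 22.8, 30.9 and 7.58, from pileups of 215, 586 and 33 reads, with crab 3 low. Of the 11 regions with a ratio of 3 or more, crab 1 was lowest in 7, where it was lowest at 106 of all 288 (36.8%). In 10 of the 11 the background was at its lowest level for the library, a floor described further on, in at least 1 crab, against 114 of all 288 (39.6%). At the other end, the site at 1398701 to 1399347 on CM024141.1 had 15.2, 15 and 15.3, and the site at 15489490 to 15490531 on CM024134.1 had 18.7, 19.2 and 18.8. The second of these had pileups of 2566, 2984 and 1717 reads over backgrounds of 136, 155 and 90.3, the highest mean background of any strong region.

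The values of the crabs lay closer together at the stronger end of the list. The median coefficient of variation between crabs was 25.5% for regions with a mean of 10 to 12, 22.6% for 12 to 15, 16.2% for 15 to 20, and 7.60% at 20 or more. The number of regions in these bands was 145, 88, 38 and 17. Fold enrichment cannot pass a ceiling of 50, described further on, and the reads of the site itself enter its background, so that the closeness of the top values is no measure of stability. The pileup alone varied more, by a median of 41.7%, 34.9%, 22.9% and 19.7% along the bands. The part of depth in this order was not tested.

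To read the strength of such regions in a further crab, regions were chosen by the mean fold enrichment of 2 crabs. They were then looked up in the crab left out, whose fold enrichment had no part in the choice. Its peaks did enter the merging, and so the extent and position of the regions. With crab 1 left out, 350 regions were chosen at a median of 12, and crab 1 had a peak in 344 (98.3%) with a median of 10.2. With crab 2 left out, 370 were chosen at 11.7, and crab 2 had a peak in 367 (99.2%) with a median of 9.48. With crab 3 left out, 240 were chosen at 12.2, and crab 3 had a peak in 239 (99.6%) with a median of 12.5. Of all intergenic regions with a peak in the other crabs, 81.8%, 71.0% and 83.1% had one in crabs 1, 2 and 3, so that the chosen sites were peaks there more often. The left-out crab itself reached 10 at 180 (51.4%), 165 (44.6%) and 167 (69.6%) of them, a mean of 55.2% ± 12.9 (SD, n = 3 crabs). Over all 7482 shared intergenic regions the share at 10 or more was 3.78%, 3.50% and 8.53% in crabs 1, 2 and 3. All 7482 hold a peak in all 3 crabs, while the chosen regions needed one only in the 2 crabs used, so that the bases differ.

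The peaks of the strong regions were mostly of simple shape. Peak width had a median of 499, 499 and 516.5 bases in crabs 1, 2 and 3 (504.8 ± 10.1, SD, n = 3), against 468.5, 399 and 493 bases in the weaker regions (453.5 ± 48.8). The medians were higher in the strong regions in each crab, though the gap in crab 3 was small. The order depended on the choices made, since at a threshold of 12 the mean of the medians was 428 bases in strong and 456 bases in weaker regions, and at like pileup strong regions were narrower (477 and 596 bases at 50 to 100 reads, 681 and 817 bases at 100 to 200 reads). Width comes from the same peak calls as the rule, so these values are a description. Of the strong regions 188 (65.3%) had 1 summit in every crab, against 48.9% of the weaker ones. The widest were at 1478285 to 1479826 on CM024129.1, with peaks of 1491, 1494 and 1481 bases, and at 8050597 to 8052003 on CM024123.1, with peaks of 1298, 1341 and 1297 bases. The narrowest were at 754611 to 754848 on CM024100.1, with peaks of 237, 237 and 238 bases and a fold enrichment of 12.5, 13.9 and 19.9, and at 576267 to 576510 on CM024129.1, with peaks of 244, 243 and 244 bases and a fold enrichment of 13.0, 12.9 and 5.57. These narrow peaks kept nearly the same width in crabs that differed in strength. Along the bands of mean fold enrichment the median width was 580, 486, 382 and 391 bases.

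The summits of the 3 crabs lay closer together at strong regions than at weaker ones. The distance between the outermost of the 3 summits had a median of 21 bases, against 59 bases in the weaker regions. All 3 summits lay within 10 bases at 62 strong regions (21.5%, exact 95% interval 16.9% to 26.7%), against 5.42% of the weaker ones, and within 50 bases at 256 (88.9%), against 45.0%. The summits lay over 100 bases apart at 14 strong regions (4.86%), against 35.3%, and the widest spread was 588 bases. The peak edges moved more than the summits, with a median spread of 54 bases, against 158 bases. Both edges lay within 10 bases over the 3 crabs at 43 strong regions (14.9%, interval 11.0% to 19.6%), against 18 weaker ones (0.250%), and within 50 bases at 139 (48.3%), against 10.5%. Pileup differed between the sets, so sites of like pileup were set side by side, in classes chosen after the values were seen. At a mean pileup of 50 to 100 reads the median summit spread was 21 bases in 172 strong regions and 34 bases in 1526 weaker ones, and both edges lay within 10 bases in 14.5% and 0.131% of them. At 100 to 200 reads the summit spread was 21 bases in 77 strong regions and 28 bases in 335 weaker ones, with edges within 10 bases in 7.79% and 0.299%. The difference in summit spread was smaller in both classes of pileup than over all regions. The median edge spread was 47.5 and 152 bases in the lower class and 71 and 104 bases in the higher, so that only the higher class had a smaller difference than over all regions. The median width and background still differed within the classes (477 and 596 bases, and 4.45 and 11.4 reads, in the lower class). At like pileup a region can pass the threshold only on a lower background. More than 1 summit in at least 1 crab was found at 34.7% of the strong and 51.1% of the weaker regions. The spreads of summits and edges are therefore not independent of the rule and are a description.

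**Figure D3:**
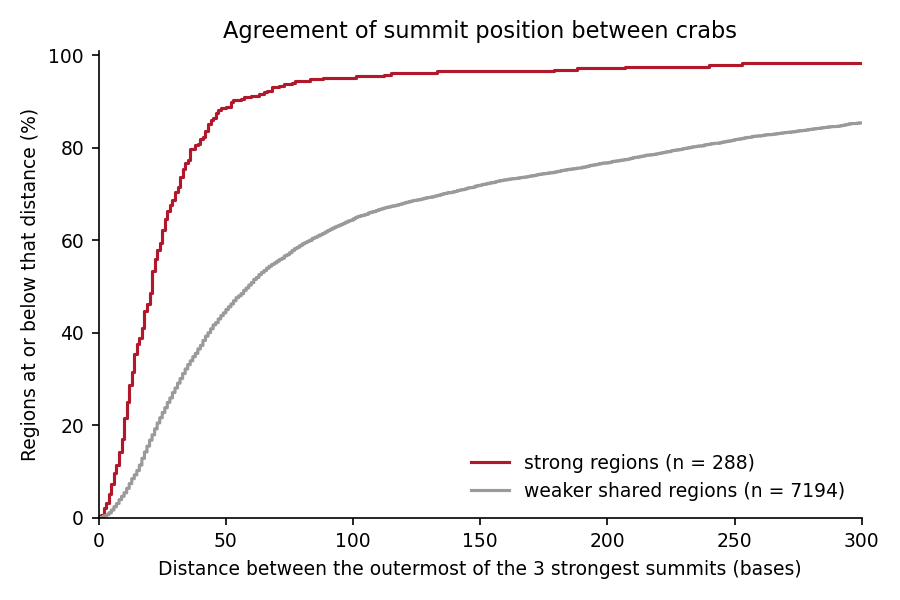
Distance between the outermost summits of the 3 crabs in bases, as a cumulative percent of regions, for the 288 strong and the 7194 weaker regions. At 50 bases the curve of the strong regions stands at 88.9% and that of the weaker regions at 45.0%.

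The background of a peak could be worked out from the files because fold enrichment and p together fix both pileup and background. The median background was 5.30, 4.74 and 5.12 reads in crabs 1, 2 and 3 at the strong regions (5.05 ± 0.286, SD, n = 3), against 6.24, 5.18 and 6.20 at the weaker ones (5.87 ± 0.601). Without crab 2 the order turned, with 5.96 reads at the strong and 5.81 at the weaker regions. The median pileup was 76, 70.5 and 92 reads, against 33, 26 and 37. The rule used fold enrichment, of which these are the parts, so both are descriptions. Each library had a lowest background, of 3.94, 3.44 and 3.49 reads, that a site took when its surroundings held no more than the library average.

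The strong regions differed among themselves in background. In 42 of them the background was at the floor in all 3 crabs, with a median pileup of 53.5 reads, none above 84, and a median width of 339.5 bases. In 174 it was above the floor in every crab, with a median pileup of 99.7 reads, a maximum of 2581, and a median width of 608 bases. The median fold enrichment was 11.7 and 11.8 in these groups, so that like folds stood on unlike read numbers. The floor was reached in all 3 crabs at 14.6% of the strong and 13.9% of the weaker regions, and in no crab at 60.4% of the strong and 68.4% of the weaker ones, so that the mix is close to that of shared intergenic regions in general. The floor group included the sites at 122038 to 122402 on CM024138.1, with 10.9, 16.9 and 19.4, at 13552406 to 13552762 on CM024139.1, with 16.2, 15.5 and 14.7, and at 1815338 to 1815648 on CM024160.1, with 8.10, 24.6 and 11.8. A mean background of at least 20 reads was found at 4 strong regions, against 365 weaker ones (5.07%).

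Above the floor, the backgrounds were whole multiples of 0.02, which gives the ratio of the read extension to the background window and sets a ceiling of 50 on fold enrichment. On that scale the share of the window's reads that covered the summit had a median of 26.9%, 26.6% and 32.5% in crabs 1, 2 and 3 at the strong regions, against 9.27%, 9.01% and 11.2% at the weaker ones. This share is close to the fold enrichment over its ceiling, so the difference follows from the rule and is a description. At the strongest site the share was 98.0%, 98.7% and 97.6%. Nearly every read of its surroundings therefore fell on that site in each crab, and its fold was close to the ceiling.

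Pileup itself was far taller at a few sites. A mean pileup of at least 500 reads was found at 6 strong regions and at no weaker one. Crab 2 was the tallest at 5 of the 6 and crab 3 the lowest at 5, although crab 2 had the tallest pileup at only 67 of all 288. Within the 6, the crabs differed by 1.35 to 1.97 times in pileup but by at most 1.10 times in fold enrichment. Background was likewise higher in the crab with the taller pileup. Reads over the summit made up 37.8% to 98.7% of those in the background window at these sites, so that the closeness in fold is partly built in and is no measure of stability.

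**Figure D4:**
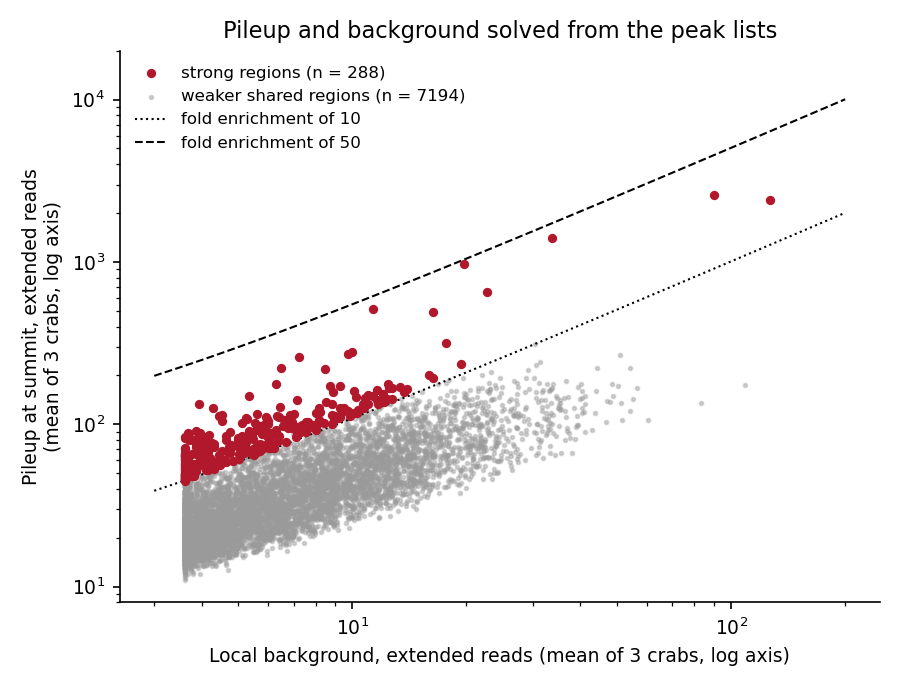
Mean pileup over mean background, both in reads on log axes, for the 288 strong and the 7194 weaker regions, with lines at a fold enrichment of 10 (dotted) and 50 (dashed). The strong regions lie above the weaker ones by construction, and 6 of them exceed a pileup of 500.

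The strong regions were spread widely over the assembly. They lay on 70 of 72 placed sequences, with a median of 3 and at most 12 per sequence, on CM024156.1. There was 1 strong region per 3.93 Mb of these sequences, measured to their last peak or gene. That length still held the part of CM024137.1 beyond 18 Mb, which was not used. Neighbours had a median gap of 1819 kb. Of the 288, 26 (9.03%, exact 95% interval 5.98% to 12.9%) had another strong region within 50 kb, and these formed 13 pairs, with no group of 3. Of the weaker regions, 5.37% (4.86% to 5.91%) had a strong region within that distance. Within 20 kb the shares were 6.25% (3.75% to 9.70%) and 2.72%, and within 100 kb 18.1% (13.8% to 23.0%) and 8.49%. At 50 kb the shares were close at other thresholds, 15.4% and 14.1% at a mean of 8, and 2.80% and 2.23% at a mean of 12. Apart from the pair on CM024133.1, the strongest pairs were on CM024145.1 and CM024111.1. On CM024145.1 the site at 4035756 to 4036173 had a fold enrichment of 26.9, 20.1 and 25 and the site at 4072782 to 4073211 had 13.6, 12.1 and 14.3. On CM024111.1 the site at 17871238 to 17872087 had 11.2, 11.6 and 9.62, and the site at 17879269 to 17879729 had 17, 22.3 and 12.3, both nearest to evm.TU.CM024111.1.490.

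Strong regions more often stood alone. The median number of other shared regions of any class within 50 kb was 1 for the strong regions and 3 for the weaker ones, and 85 strong regions (29.5%, exact 95% interval 24.3% to 35.1%) had none, against 15.6% of the weaker ones. They were also farther from genes. The median distance to the nearest TSS was 28070 bases, against 21229 bases, and the gap between flanking genes had a median of 122918 bases, against 88523 bases. A TSS lay within 10 kb of 58 strong regions (20.1%), against 27.5% of the weaker ones, and 40 (13.9%) had none within 100 kb, against 9.61%. Reads of nearby sites can enter the local background that the rule divides by. The counts of neighbours and the distances are therefore not independent of the rule and are a description. The farthest were at 13102656 to 13102964 on CM024167.1, 316159 bases from a TSS, at 14565376 to 14566291 on CM024134.1, 305396 bases away, and at 7928572 to 7929551 on CM024133.1, 279534 bases away. The nearest were at 1678450 to 1679101 on CM024114.1, 2342.5 bases away, at 8679490 to 8680223 on CM024102.1, 3186.5 bases away, and at 1220950 to 1221673 on CM024131.1, 3246.5 bases away. The orientation of the flanking genes was alike in both sets, with divergent genes at 29.2% of the strong and 30.3% of the weaker regions.

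The genes nearest to strong regions had lower levels in inter-molt muscle than those nearest to weaker ones. The nearest gene was the one with the nearest TSS, and the 288 regions had 270 different ones, over which the median of log2(FPKM + 1) was 0.16, 0.29 and 0 in crabs 1, 2 and 3 (mean 0.15 ± 0.14, SD, n = 3). Over the 3846 nearest genes of weaker regions it was 0.53, 0.52 and 0.30 (0.45 ± 0.13), and over all 28671 genes 0.56, 0.59 and 0.37. The strong regions had the lower median in each crab. The level itself moved, to 0.05 against 0.44 without crab 3 and to 0.39 against 0.88 with EVM gene models alone, while the order held. A mean of at least 1 FPKM was found in 97 of the 270 genes (35.9%, exact 95% interval 30.2% to 42.0%), against 43.3% (41.7% to 44.9%), and 99 (36.7%) had no read in any crab, against 32.9%. Genes are not independent replicates, and a nearest gene need not be one that a region acts on. In bulk muscle, fewer cells of a type and less RNA per cell cannot be told apart.

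The difference in this share was widest at short range. Where the TSS was within 10 kb, 33.3% (21.4% to 47.1%) of 57 genes near strong regions reached 1 FPKM, against 51.5% (49.0% to 53.9%) of 1650 genes near weaker ones. At 10 to 50 kb the shares were 37.9% of 132 genes and 42.1% of 2179, and at 50 kb or more 35.7% of 84 and 34.6% of 869. Reads at a nearby gene can enter the local background that the rule divides by. These shares and the levels above are therefore not independent of the rule and are a description. The differences between these distance classes were not tested.

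**Figure D5:**
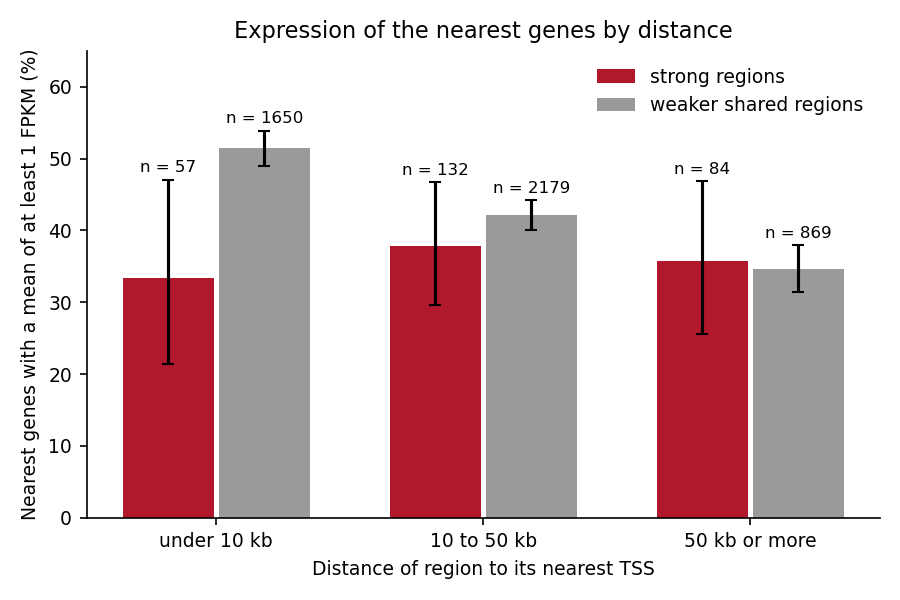
Percent of nearest genes with a mean of at least 1 FPKM, by distance to the TSS, for strong and weaker regions, with exact 95% intervals for counting error. Under 10 kb the strong regions stand at 33.3% and the weaker ones at 51.5%, and at 50 kb or more at 35.7% and 34.6%.

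Some nearest genes were nevertheless abundant. The highest was evm.TU.CM024131.1.49, with 949, 888 and 1300 FPKM in crabs 1, 2 and 3, and on plain read totals 985, 1132 and 638, where crab 3 turns from highest to lowest. It stood near a region with a fold enrichment of 11.3, 14.9 and 8.38. Next came evm.TU.CM024132.1.170, with 268, 66.8 and 1625 FPKM, where crab 3 stood far above crab 2, and also did so on plain read totals with 278, 85.1 and 798. The gene evm.TU.CM024164.1.2 had 136, 105 and 646 FPKM, again with crab 3 highest, and 141, 134 and 317 on plain totals. The gene evm.TU.CM024133.1.247 had 109, 119 and 238 FPKM, where crab 3 no longer led on plain totals, with 113, 151 and 117. The gene evm.TU.CM024135.1.404 had 106, 75.8 and 65.7 FPKM, and 110, 96.5 and 32.2 on plain totals. The means of evm.TU.CM024132.1.170 and evm.TU.CM024164.1.2 thus rested largely on crab 3.

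A few of the nearest genes are listed by the study as changing over the molting cycle. Of the 270, 10 (3.70%, exact 95% interval 1.79% to 6.71%) are on lists of genes that changed in both accessibility and expression between adjacent molt stages. The share was 6.03% near weaker regions and 3.15% over all genes. For those lists the study gave peaks at a promoter to its gene and all other peaks to the gene with the nearest TSS. Inter-molt libraries also entered some of the lists, so that the lists are not independent of position or of these samples. Of the 10 genes, 5 were listed between pre-molt and molt, 2 between inter-molt and pre-molt, 2 between post-molt and inter-molt and 1 between molt and post-molt, and 8 had a mean of at least 1 FPKM. The gene evm.TU.CM024135.1.24, listed between inter-molt and pre-molt, had 4.02, 31.0 and 69.6 FPKM in crabs 1, 2 and 3, with crab 1 low. On plain read totals it had 4.17, 39.5 and 34.2, where crab 1 was still low but crab 3 no longer stood above crab 2.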

How the data were processed

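Muscle of 3 inter-molt crabs was measured, with 3 ATAC-seq and 3 RNA-seq libraries. The authors aligned ATAC-seq reads with BWA and called peaks in each library with MACS2, splitting peaks into summits. The deposited fold enrichment is a ratio of pileup over background, with 1 added to each. Beside it stand −log10 p, −log10 q and a score (from −log10 q) as the authors' values. The lowest −log10 q was 1.30. The deposited FPKM came, per the submitters' processing notes, from HISAT2 2.0.5 and featureCounts 1.5.0-p3. The library sizes behind FPKM differ from the read totals worked out from it, so plain totals were also used.

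Peaks were merged at an overlap of at least 1 base, and positions count from 1. Pileup and background were solved from fold enrichment and p, within 0.01 in −log10 p, and tested on simulated data. Log values used a pseudocount of 1, so that differences of low genes are understated. Intervals are exact (Clopper-Pearson, 95%) and cover counting error only. No test was run on the regions, since their own ATAC-seq signal chose them. Named regions were the 10 strongest, those nearest the threshold and those at the extremes of ratio, width, background and TSS distance, with the top pairs and the most abundant nearest genes. The regions and lists were chosen with earlier results of these data known. The alternatives were other thresholds, mergings, annotations, TSS margins, q limits, pseudocounts, filters and scalings, and leaving out each crab. The gene table has 21314 EVM gene models and 7357 added loci. The peak names of crab 3 carry another number, so that its place rests on the sample record. Strand use in counting and ATAC read depth are not given in the sources used here. The scripts ran under python 3.11.15, with pandas 2.3.3, numpy 2.4.6, scipy 1.17.1 and matplotlib 3.10.9.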

Additional observations from a re-analysis of the deposited data

How the results depend on the processing

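Requiring a peak −log10 q of at least 10, merging at a larger overlap, 5 kb around each TSS and all of CM024137.1 left between 265 and 305 regions. At a threshold of 12 there were 143 strong regions with a median fold enrichment of 14.2, a median width of 428 bases, 2.80% within 50 kb of another and 43.4% with a ratio of 1.5 between crabs. At a threshold of 8 there were 682, with 9.69, 560 bases, a background of 5.35 reads and 15.4% within 50 kb of another. Requiring 10 in the lowest crab left 122 regions, with 14.3, 459.5 bases, 3.28% near another, 33048 bases to a TSS and 22.1% at the ratio. With EVM models alone the width was 530 bases, the TSS distance 37523.5 bases and the nearest-gene median 0.39 (0.88 for weaker regions). Within 100 kb, 18.1% had another strong region, against 8.49% of weaker regions. The ratio was reached by 18.1% at 2 and by 45.1% after scaling to crab medians. The nearest-gene median was −2.39 with a pseudocount of 0.1 (−1.12 for weaker regions) and 1.38 for genes of at least 0.1 FPKM (1.89), so that strong regions stayed lower under both. Leaving out each crab gave 240 to 370 regions, widths of 445 to 564.75 bases, backgrounds of 4.51 to 5.96 reads and 19.2% to 41.1% at the ratio. The ratio is limited by construction when only 2 crabs are used or when the lowest crab must reach 10. For these choices and for the threshold of 12, the share at the ratio over all regions was not worked out. The cause of these shifts was not tested. The sites at the background floor in all 3 crabs rest on few reads, with a median pileup of 53.5, and the part of depth was not tested.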

Other observations

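Strong intergenic regions were also found where the position rules did not look. On unplaced sequences, 484 of 7572 shared intergenic regions (6.39%) had a mean fold enrichment of at least 10. They lay on 397 sequences, with a median of 12.4, a maximum of 44.7, and 47 at 20 or more. On CM024137.1 beyond 18 Mb, 17 of 710 (2.39%) did so, with a maximum of 24.1 and 3 at 20 or more. The number of strong regions on unplaced sequences thus exceeded the 288 on the placed ones.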
